A study of Mus musculus with 24 samples.

Results

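RfxCas13d is a CRISPR nuclease that a guide RNA (crRNA) directs to a chosen transcript, and once bound to its target it can also cut other RNAs in the cell, which is called collateral activity. Here its effect on the transcriptome was described from 6 of the 24 RNA-seq samples of the series, chosen by the effector and crRNA in their labels: 3 of Neuro2A cells transfected with RfxCas13d and a crRNA against the mouse ataxin-2 transcript (mATXN2), and 3 of cells given RfxCas13d with a non-targeted (NTG) crRNA. Neuro2A is a mouse neuroblastoma line, used here as wild-type cells, and RNA was collected 48 hr after the transfection. In both arms 1 plasmid carried the nuclease behind the CAG promoter and the crRNA behind the U6 promoter. The cells were not stated to be sorted for the plasmid, so each sample may mix transfected with untransfected cells. The remaining samples, used below only for comparison, were 3 with each crRNA of HiFi-RfxCas13d, a variant of the nuclease with reduced collateral activity, 3 with each crRNA of DiCas7-11, an unrelated RNA-targeting effector, 3 untransfected and 3 treated with an ataxin-2 antisense oligonucleotide (ASO). The control arm is called NTG here after its label and the study's description, although the columns of the deposited table name the control arm EV and the targeting arm G12.

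Ataxin-2, the product of Atxn2, is an RNA-binding protein that associates with polyribosomes and with poly(A)-binding protein. It takes part in the assembly of stress granules, the cytoplasmic bodies in which stalled messenger RNAs collect. A mammalian cell that takes up plasmid DNA can also switch on interferon-stimulated genes, a set of antiviral genes, so the transfected and untransfected cells may differ before any guide has acted.

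The 6 samples held between 14212492 and 18505568 counts, and of 39253 genes listed, the 13899 with at least 0.5 CPM (counts relative to the total of the library) in at least 3 of the 24 samples were tested. All levels below are CPM after TMM scaling, and all differences are log2 fold changes of the mATXN2 over the NTG samples with their standard error. The test was the quasi-likelihood F test of edgeR, fitted over all 24 samples and adjusted by the Benjamini-Hochberg method, and a gene with an adjusted p under 0.05 is said to have risen or fallen. The summed level of 29 neuronal and neuroblastoma markers was 4857 to 4981 CPM in the NTG and 4857 to 4924 CPM in the mATXN2 samples, with Hand2, Gata2, Chgb, Tubb3 and Prph all high, although 6 of the 29, among them Th, Dcx and Nefm, were under 1 CPM in all 6 samples. All 10 markers of microglia and macrophages were under 1 CPM, and those of astrocytes and oligodendrocytes summed to no more than 17.2 CPM and those of fibroblasts to no more than 24.6 CPM. In bulk RNA, fewer cells carrying a transcript and less of the transcript per cell cannot be told apart.

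Atxn2 itself, the intended target, was slightly lower in the mATXN2 arm but did not pass the test once adjusted over all genes. Its level was 119.8, 121.6 and 125.0 CPM in the NTG samples and 116.2, 112.2 and 113.2 CPM in the mATXN2 samples. The groups did not overlap, yet the means differed by only 0.10 on the log2 scale, from 122.1 ± 2.64 to 113.9 ± 2.08 CPM (SD, n = 3; adjusted p = 0.177). For this gene, named in advance, the unadjusted edgeR p was 0.00963, and the 95% interval of the change ran from -11.8% to -1.67%. An exact two-sided permutation test of these 6 values gave p = 0.1, the smallest that 3 samples against 3 allow. With the other means of lowering ataxin-2, Atxn2 averaged 101.4 CPM under HiFi-RfxCas13d against 119.3 CPM in its control, 103.2 against 118.4 CPM under DiCas7-11, and 52.0 ± 2.77 CPM (SD, n = 3) in the ASO samples against 123.2 ± 1.79 CPM in untransfected cells. By edgeR Atxn2 passed with HiFi-RfxCas13d (-0.23, adjusted p = 0.00157) and with DiCas7-11 (-0.20, adjusted p = 0.00555). The difference of the response from that of HiFi-RfxCas13d was 0.13 ± 0.05 (adjusted p = 0.741) and did not pass. Among 10 genes of ataxin-2 and its partners, Cbl, a ubiquitin ligase adaptor, rose from 118.3 to 132.3 CPM (0.16 ± 0.04, adjusted p = 0.0460), a call made in none of the fits that left a library out. Atxn2l, the ataxin-2 paralog, went from 265.2 to 273.0 CPM (adjusted p = 0.538) and Pabpc1, the main poly(A)-binding protein, from 1574 to 1581 CPM (adjusted p = 0.947).

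Across the transcriptome 193 genes passed the test (1.39% of the genes tested), of which 127 rose (0.914%) and 66 fell (0.475%). The changes were small: the median was 0.21 among the rises and -0.16 among the falls, 28 genes rose and 9 fell by at least 0.3, and no gene rose by 1 or more. The called genes were mostly well expressed, with a median NTG level of 119.5 CPM for the rises and 132.6 CPM for the falls beside 26.0 CPM over all genes tested. In all 193 the 3 mATXN2 values lay wholly above or below the 3 NTG values, which was also so for 2812 of all 13899 genes (20.2%). The number of calls rested on single libraries: without NTG replicate 1 it was 46, and without mATXN2 replicate 3 it was 43. A core of 28 rises and 5 falls passed the test whichever of the 6 libraries was left out, no called gene changed sign when a library was left out, and a gene is called robust below where it belongs to that core.

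**Figure D1:**
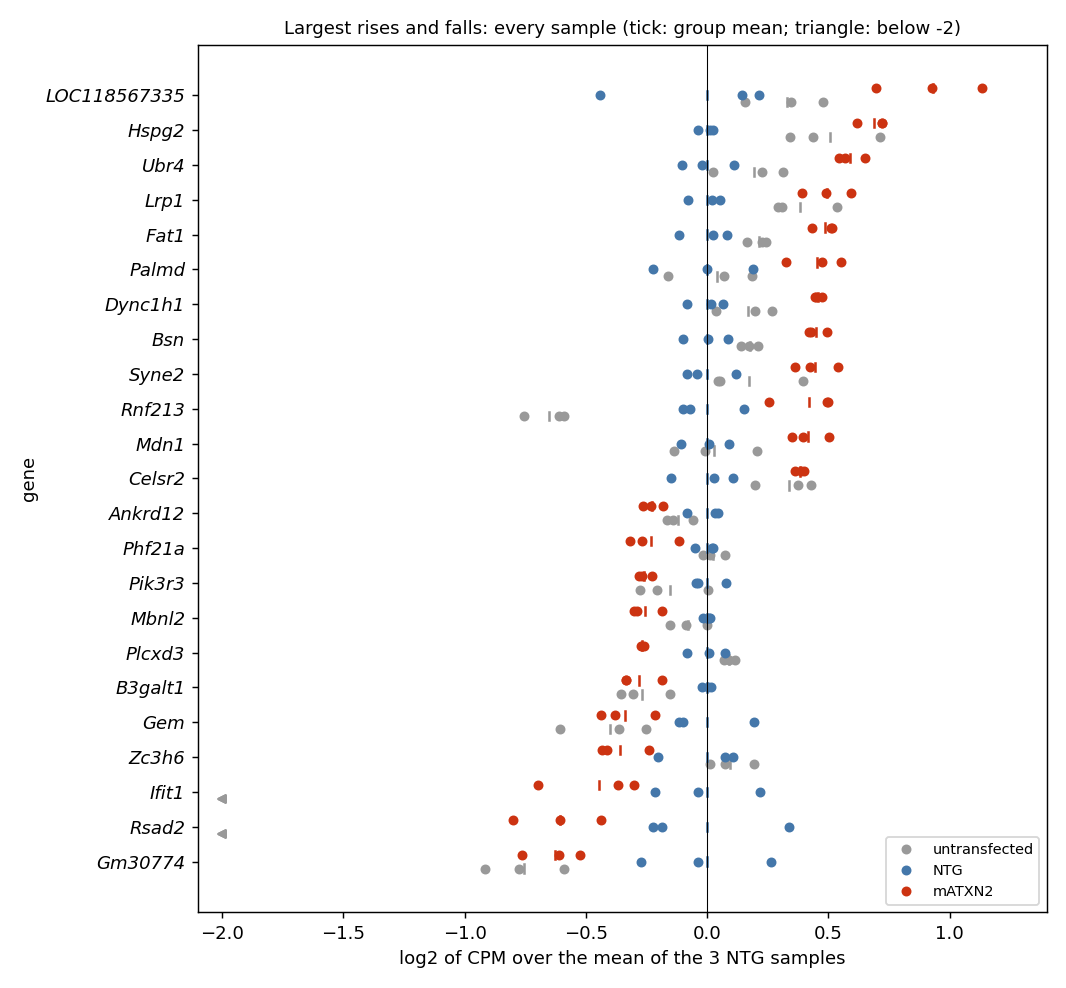
The 12 largest rises and 11 of the 12 largest falls (genes in rows, with a mean of at least 50 counts), each point 1 sample, as log2 of its CPM over the mean of the 3 NTG samples (x axis); ticks are group means, and triangles mark untransfected values below -2. In every row the 3 mATXN2 points lie to 1 side of the 3 NTG points, from Hspg2 at 93.7 to 100.6 against 59.5 to 62.0 CPM down to Rsad2 at 8.85 to 11.4 against 13.2 to 19.5 CPM.

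The largest rises with at least 1 CPM in every sample were in transcripts that encode very large proteins, with 2 exceptions among the 12 largest, Palmd and the predicted gene LOC118567335. The latter went from 1.66, 2.62 and 2.50 CPM to 4.29, 3.66 and 4.96 CPM (0.91 ± 0.20, adjusted p = 0.0171), and it did not pass when NTG replicate 1 was left out (adjusted p = 0.136). Hspg2, which encodes perlecan, the heparan sulfate proteoglycan of basement membranes, was at 61.5, 59.5 and 62.0 CPM in the NTG samples and at 100.6, 93.7 and 100.4 CPM in the mATXN2 samples. This robust rise of 0.69 ± 0.08 (adjusted p = 2.844e-05) was far larger than the spread in either group. The untransfected cells lay at 99.95, 82.6 and 77.3 CPM, above every NTG sample. Ubr4, a giant ubiquitin ligase that recognises destabilising protein ends, was at 198.8, 210.3 and 230.7 CPM in the NTG and 316.1, 311.1 and 335.1 CPM in the mATXN2 samples. It rose by 0.59 ± 0.07 (adjusted p = 2.844e-05) and was robust, with untransfected cells at 216.8 to 265.0 CPM. Dync1h1, the heavy chain of cytoplasmic dynein, which moves cargo toward the minus ends of microtubules, was at 243.4, 260.7 and 270.2 CPM in the NTG and 352.7, 359.0 and 351.8 CPM in the mATXN2 samples. It rose by 0.46 ± 0.06 (adjusted p = 9.372e-05) and was robust. For these 3 genes the lowest mATXN2 sample exceeded the highest NTG sample by more than the range of the NTG samples.

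Receptors and adhesion molecules of the cell surface were the next large group. The gene lists here and below were chosen with earlier results of these data known, a trend with length included. Their shares of rises and their medians are therefore descriptions and not tests of the families. Fat1, a giant atypical cadherin, was at 77.1, 84.9 and 88.4 CPM in the NTG and 112.8, 119.0 and 119.3 CPM in the mATXN2 samples, a robust rise of 0.48 ± 0.06 (adjusted p = 9.372e-05). Lrp1, an endocytic receptor of the LDL receptor family, was at 24.7, 27.1 and 26.5 CPM against 36.7, 34.2 and 39.4 CPM, also robust (0.49 ± 0.08, adjusted p = 0.00121). Of 12 tested cadherin and LDL receptor-related giants 6 rose and none fell, and their median was 0.10 beside 0.00 over all genes tested. Celsr2 (0.38), Celsr3 (0.27) and Dchs1 (0.28), cadherins of planar cell polarity, and Lrp6 (0.13), a co-receptor of Wnt signalling, also rose. Fat3, Lrp1b and Celsr1 were under 1 CPM on average in both groups, and Lrp5, the closest relative of Lrp6, was at 43.3 and 43.9 CPM (adjusted p = 0.938). Only Fat1 and Lrp1 of the 6 were robust, and without NTG replicate 1, NTG replicate 2 or mATXN2 replicate 2 they were the whole count of 2. The median of the 12 was 0.08 to 0.19 when a library was left out.

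Of 13 giant ubiquitin ligases, enzymes that mark proteins for degradation or signalling, 6 rose and none fell, with a median of 0.16. Besides Ubr4 these were Rnf213 (0.42), Herc2 (0.37), Hectd4 (0.33), Huwe1 (0.27) and Herc1 (0.26), and the first 2 and Herc1 were robust. Herc2, which acts in the DNA damage response, was at 92.9, 100.4 and 102.5 CPM in the NTG and 124.5, 124.4 and 133.8 CPM in the mATXN2 samples. Mycbp2, another giant ligase known for its part in axon growth, went from 182.2 to 204.4 CPM without passing the test (adjusted p = 0.0921), and Trip12, with a shorter coding sequence than these, was at -0.03 without passing. Between 4 and 6 of the list were called when a library was left out.

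Of 21 cytoskeletal linkers, spectrins and motor chains, which tie actin, microtubules and intermediate filaments to each other and to membranes, 11 rose and none fell, and the median was 0.15. The risen members included Dync1h1, Bsn (0.44), Syne2 (0.44), Dst (0.32), Ahnak (0.27), Plec (0.27), Map1a (0.25), Macf1 (0.21), Flna (0.14) and Myh9 (0.13). Plec, which encodes plectin, was at 150.9, 162.4 and 167.8 CPM in the NTG and at 194.8, 192.0 and 193.4 CPM in the mATXN2 samples and was robust, as were Dync1h1 and Map1a. Syne1, a nesprin with the longest coding sequence of the list, was at 40.6 and 40.9 CPM (adjusted p = 0.988). Bsn, a scaffold of the presynaptic active zone at 12.3, 11.4 and 12.96 CPM against 16.5, 16.3 and 17.2 CPM, passed in none of the leave-out fits. Between 3 and 11 of the list were called when a library was left out, with 3 without NTG replicate 1.

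Among regulators of transcription and of cell growth with long coding sequences, some rose and others did not pass the test. Of the 6 H3-K4 methyltransferases 3 rose, Kmt2d (119.5 to 152.4 CPM, 0.35), Kmt2a (93.8 to 113.2 CPM, 0.27) and Kmt2b (63.2 to 73.1 CPM, 0.21), Kmt2c and Setd1b were 0.16 higher without passing the test, and Setd1a was at 89.6 and 91.4 CPM. None of these calls was robust, and between 0 and 2 of the list passed when a library was left out, with 0 without NTG replicate 1, mATXN2 replicate 1 or mATXN2 replicate 3. Of 13 subunits that such complexes share, only Hcfc1 rose (0.20, robust), with a median of -0.01 over the 13. Of 20 CHD and SWI/SNF-type remodelers only Ep400 rose, from 115.8 to 142.1 CPM (0.29, robust). Among 6 PI3K-related kinases, Trrap, the scaffold that brings acetyltransferase complexes to activators, was at 152.5, 161.9 and 172.5 CPM in the NTG and 207.8, 210.3 and 215.5 CPM in the mATXN2 samples, a robust rise of 0.38. Mtor, the growth-controlling kinase, rose from 89.2 to 107.8 CPM (0.27, robust), while Atm, Atr and Prkdc, the DNA damage kinases of the same family, did not pass (adjusted p = 0.335, 0.755 and 0.610). Mdn1, an ATPase that helps to mature the large ribosomal subunit, rose by 0.41, from 124.2, 134.3 and 142.4 CPM to 170.1, 175.8 and 189.6 CPM.

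Matrix and lipid genes changed singly and not as groups. Fn1, which encodes fibronectin, was at 519.7, 559.4 and 595.7 CPM in the NTG and 693.3, 692.9 and 691.0 CPM in the mATXN2 samples, a robust rise of 0.31 ± 0.04 (adjusted p = 9.372e-05). Hspg2 and Fn1 were the only rises among 15 genes of basement membrane and matrix, whose median was 0.00. Sparc, a secreted collagen-binding protein, fell from 141.4 to 127.0 CPM (adjusted p = 0.0306), and Col4a1 and Col4a2, the main type IV collagens, were at 0.00 and 0.03 without passing. Fasn, the fatty acid synthase, was at 640.0, 656.9 and 686.2 CPM in the NTG and 812.4, 793.0 and 797.5 CPM in the mATXN2 samples, a robust rise of 0.28 ± 0.04 (adjusted p = 7.308e-05). It was the only one of 15 genes of fatty acid synthesis that passed, with Scd2, the desaturase, at 3145 and 3186 CPM and Acly, which supplies its acetyl-CoA, at 1470 and 1473 CPM. Of 23 genes of cholesterol synthesis none passed the test in edgeR, DESeq2 or limma, and 1 had an unadjusted p under 0.05.

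Most nuclear-encoded genes of the respiratory chain lay slightly above their control, and few passed the test. The smallest p was that of Cox8a, a small subunit of complex IV, which was at 63.1, 63.8 and 67.9 CPM in the NTG and 76.8, 79.1 and 77.5 CPM in the mATXN2 samples, a robust rise of 0.26 ± 0.05 (adjusted p = 0.00232). Cox7b (0.17) and Cox5b (0.16) also rose, making 3 of 12 in complex IV. Of 13 genes of complexes II and III, Uqcr10 (0.21), Sdhd (0.13) and Sdhb (0.10) rose, all 13 were above their control, and the median was 0.11. Of 36 genes of complex I, Ndufab1 (0.20), Ndufs3 (0.17) and Ndufb9 (0.16) rose, 30 were above their control and the median was 0.06. When a library was left out, between 1 and 2 genes of complex IV, 0 and 2 of complexes II and III and 0 and 2 of complex I were called. The median of complex I was then 0.03 to 0.08. Of 18 genes of ATP synthase edgeR called none, DESeq2 called 1 higher, limma called 0 when adjusted within the comparison and 5 higher when adjusted over 10 comparisons, 8 were higher and 0 lower at an unadjusted p under 0.05, and 17 lay above their control with a median of 0.07. These medians depended on transcript length: after each library was corrected for its trend on that length they were 0.03 for complex IV, 0.07 for complexes II and III, 0.01 for complex I (21 of 36 above their control) and 0.02 for ATP synthase. Summed over complex IV, the level was 1576 to 1613 CPM in NTG, 1691 to 1693 CPM in mATXN2 and 1664 to 1677 CPM in untransfected samples. Over complex I the sums were 2688 to 2737, 2811 to 2838 and 2747 to 2799 CPM in the same order. Over complexes II and III they were 1919 to 1942, 2027 to 2065 and 1935 to 1981 CPM. Over ATP synthase they were 6293 to 6421, 6545 to 6599 and 6326 to 6529 CPM. The transcripts of the mitochondrial genome were not analysed here. With HiFi-RfxCas13d and DiCas7-11 the medians were 0.02 and 0.04 for complex IV, 0.04 and 0.02 for complexes II and III, 0.03 and 0.03 for complex I and 0.03 and 0.01 for ATP synthase.

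Genes of the ribosome and the core spliceosome held rises and no falls by the test, all of them small. Of 79 cytosolic ribosomal proteins 67 lay above their control, with a median of 0.05. Groups did not overlap for 43 in the higher direction and 4 in the lower, beside 20.2% in either direction over all genes. By the test 14 rose and none fell. The largest was Rpl35a, at 187.9, 188.3 and 185.0 CPM in the NTG and 213.6, 215.2 and 229.6 CPM in the mATXN2 samples (0.23 ± 0.04, adjusted p = 0.00282), followed by Rpl39 (0.17), Rpl34 (0.16), Rps16 (0.14) and Rps13 (0.14). No ribosomal protein was robust, and without mATXN2 replicate 3 the count of 14 fell to 0. The summed level of the 79 was 52430 to 53150 CPM in NTG, 54490 to 54670 CPM in mATXN2 and 55810 to 56450 CPM in untransfected samples. After the correction on transcript length 45 of the 79 lay above their control, the median was 0.01, and 2 were called higher and 2 lower. Of 78 mitochondrial ribosomal proteins Mrps24 (0.26) and Mrps7 (0.17) rose, neither of them robust, and 64 lay above their control with a median of 0.07. Of 45 core spliceosome genes, 32 of them above their control, Prpf8 (0.22), Snrnp200 (0.17), Snrpb (0.18) and Sf3b5 (0.29) rose and none fell. Prpf8, the largest protein at the catalytic heart of the spliceosome, was at 459.7, 471.9 and 490.2 CPM in the NTG and 550.0, 542.4 and 561.2 CPM in the mATXN2 samples, and it and Snrnp200, the helicase that unwinds U4 from U6, were robust. Of 41 SR proteins and hnRNPs, which choose splice sites, Srsf9 (0.22) and Srrm2 (0.28) rose, both robust, while 26 lay below their control and the median was -0.02.

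**Figure D2:**
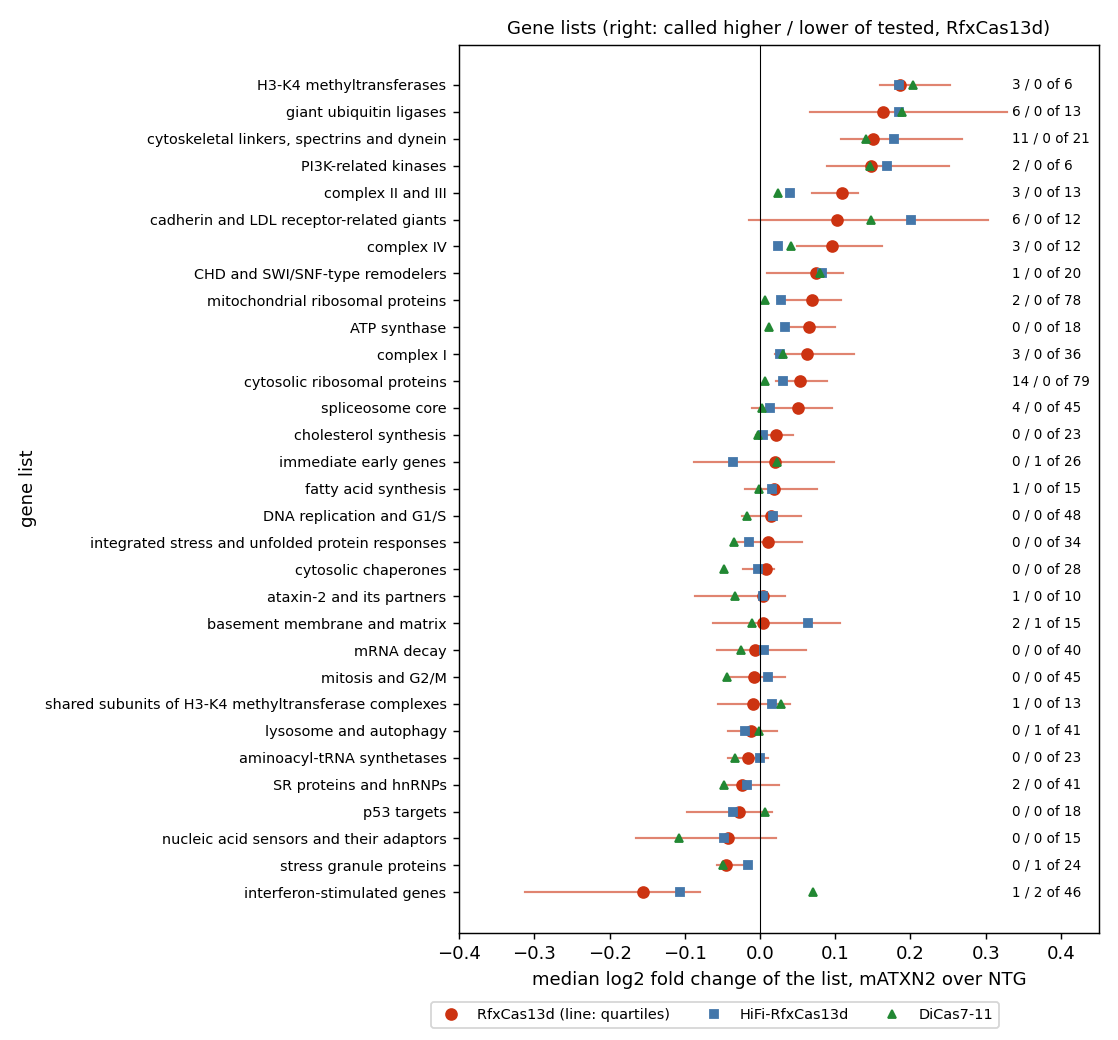
Median log2 fold change (x axis) of 31 gene lists (rows) under RfxCas13d (circles, with quartiles as lines), HiFi-RfxCas13d (squares) and DiCas7-11 (triangles), and at the right the members called higher and lower under RfxCas13d out of those tested. H3-K4 methyltransferases, giant ubiquitin ligases and cytoskeletal linkers have medians of 0.15 to 0.19 under RfxCas13d, and the interferon-stimulated genes one of -0.16 with RfxCas13d and 0.07 with DiCas7-11. The lists were chosen with earlier results of these data known.

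The falls were fewer, and apart from a pair of interferon-stimulated genes no list held more than 1 of them. The strongest by p-value was Mbnl2, a muscleblind-like regulator of alternative splicing, at 134.9, 134.7 and 132.3 CPM in the NTG and 117.7, 109.6 and 108.7 CPM in the mATXN2 samples, a robust fall of -0.26 ± 0.04 (adjusted p = 0.00117). Mapk10, which encodes the neuronal stress kinase JNK3, was at 56.1, 57.2 and 57.2 CPM against 48.8, 49.6 and 48.3 CPM, a robust fall of -0.22 ± 0.04 (adjusted p = 0.00252). B3galt1, a galactosyltransferase of the Golgi, was at 58.8, 59.4 and 57.9 CPM against 51.7, 46.6 and 46.6 CPM and was robust too (-0.28 ± 0.05, adjusted p = 0.00478). Each of these groups was tight, with a gap between them larger than the range within the NTG samples. Untransfected cells lay at 120.6 to 133.8 CPM for Mbnl2 and 52.6 to 56.1 CPM for Mapk10. For B3galt1 they lay at 46.0 to 52.9 CPM, near the mATXN2 and below every NTG sample. Maco1 (-0.15) and Ppfibp2 (-0.19), a liprin-binding scaffold, completed the robust falls. Sp3, a transcription factor that binds GC-rich promoters, was at 174.0, 171.6 and 168.5 CPM against 154.5, 157.4 and 150.5 CPM (-0.15, adjusted p = 0.00660) and passed in all but 1 of the leave-out fits. Syt1, the calcium sensor of synaptic vesicle release, fell from 136.7, 124.7 and 132.3 CPM to 115.3, 119.2 and 111.5 CPM (-0.18) and was the only call among 25 neuronal and neuroblastoma markers tested.

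Several other falls were of moderate size. Dusp6, a phosphatase that switches off ERK, was at 147.0, 141.6 and 144.0 CPM against 126.8, 124.9 and 120.3 CPM (-0.22, adjusted p = 0.0212), and it was the only call among 26 immediate early genes, Fos, Egr1 and Myc included. Pik3r3, a regulatory subunit of PI3-kinase, fell by -0.26 (63.0 to 52.7 CPM), Gem, a small GTPase that restrains calcium channels, by -0.33 (29.9 to 23.6 CPM), and Phf21a, a reader of unmethylated H3-K4 in the LSD1 complex, by -0.23 (62.1 to 52.96 CPM). Plcxd3 (-0.27), Ankrd12 (-0.23), Zc3h6 (-0.37) and the predicted gene Gm30774 (-0.62, mean 6.41 to 4.14 CPM) were also among the 12 largest falls. Untransfected cells averaged 56.6 CPM for Pik3r3, 22.7 CPM for Gem and 63.2 CPM for Phf21a. Pik3r3 and Gem did not pass when NTG replicate 1 was left out (adjusted p = 0.150 and 0.280), nor when mATXN2 replicate 3 was (adjusted p = 0.105 and 0.208).

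Of 24 stress granule proteins, the class to which ataxin-2 belongs, 22 lay below their control, with a median of -0.05, and only Taf15 fell by the test. After each library was corrected for its trend on GC content the median was -0.02, with 5 of the 24 above their control. Taf15, an RNA-binding protein related to EWSR1, was at 198.4, 195.9 and 194.6 CPM in the NTG and 181.6, 178.9 and 183.0 CPM in the mATXN2 samples (-0.12 ± 0.03, adjusted p = 0.0272), a call that passed in only 1 of the 6 leave-out fits. In untransfected cells Taf15 was at 176.5 to 179.6 CPM, below every NTG sample. Its relative Ewsr1 (459.5 to 440.4 CPM, adjusted p = 0.190) did not pass, nor did the granule nucleators G3bp1 (532.2 to 533.7 CPM) and Caprin1 (760.2 to 735.9 CPM). Groups did not overlap, in the lower direction, for 11 of the 24, beside 20.2% in either direction over all genes. Tardbp, which encodes TDP-43, was at 525.9 and 511.7 CPM (adjusted p = 0.496).

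Interferon-stimulated genes, which are induced through promoter elements that interferon regulatory factors read as repeats of GAAA, held the largest falls among protein-coding genes with a mean of at least 50 counts. The promoter windows of the 2 that fell carry such repeats, printed here from RefSeq (GRCm38.p6) as the stretch around the matches, with the matches to GAAA, any 2 bases and GAAA again, on either strand, in capitals. The Ifit1 stretch, chr19:34640765-34640833 on the plus strand, holds 2 matches, the first starting 104 bases before the transcript start, and the Rsad2 stretch, chr12:26456543-26456592 on the minus strand, holds 1 match, 120 bases before its start. Matches were found in 15 of 35 tested interferon-stimulated genes with a window (42.9%) and in 389 of 10840 tested genes with one (3.59%), a description of the letters and not of binding.
Ifit1: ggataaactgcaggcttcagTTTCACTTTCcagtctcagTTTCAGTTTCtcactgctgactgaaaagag
Rsad2: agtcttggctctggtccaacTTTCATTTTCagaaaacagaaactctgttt

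Rsad2, which encodes the antiviral enzyme viperin, was at 19.5, 13.2 and 13.6 CPM in the NTG and 10.1, 11.4 and 8.85 CPM in the mATXN2 samples, and at 0.78 to 0.90 CPM in untransfected cells. It fell by -0.59 ± 0.13 (adjusted p = 0.0202), and the call was lost without NTG replicate 1, the highest of the 6 (-0.40, adjusted p = 0.189), without mATXN2 replicate 3 (adjusted p = 0.132) and without mATXN2 replicate 1 (adjusted p = 0.0605). Ifit1, which binds foreign RNA lacking a self cap, was at 24.6, 18.2 and 20.6 CPM against 17.2, 16.4 and 13.03 CPM, with 0.06 to 0.12 CPM in untransfected cells. It fell by -0.43 ± 0.10 (adjusted p = 0.0258), and that call passed in 2 of the 6 leave-out fits and in limma adjusted over 10 comparisons (adjusted p = 0.0205) but not within the comparison (adjusted p = 0.0866). DESeq2 gave neither gene an adjusted p. Both genes were thus well above their level in untransfected cells in each arm, and lower in the mATXN2 arm.

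Over the list, 41 of 46 interferon-stimulated genes tested lay below their control, 2 fell and 1 rose by the test, and the median was -0.16. When a library was left out the median was -0.24 to -0.10, with between 4 and 11 of the 46 above their control. Isg15, a ubiquitin-like modifier, went from 14.6 to 11.2 CPM (adjusted p = 0.0815), Mx1, an antiviral GTPase, from 3.90 to 2.75 CPM (adjusted p = 0.226), and Oasl2, of the oligoadenylate synthetase family, from 15.7 to 12.6 CPM (adjusted p = 0.2998), none of which passed. The summed level of the list was 993.8 to 1137 CPM in the NTG and 924.6 to 1120 CPM in the mATXN2 samples, ranges that overlap, and 459.5 to 484.5 CPM in untransfected cells. Groups did not overlap for 9 members in the lower and 1 in the higher direction, beside 20.2% of all genes. The member that rose, Rnf213, belongs also to the giant ubiquitin ligases and was at 87.8, 86.0 and 102.5 CPM in the NTG, 110.1, 129.6 and 130 CPM in the mATXN2 and 54.6 to 61.2 CPM in the untransfected samples. Of 15 nucleic acid sensors and adaptors that switch the program on, none passed in edgeR, DESeq2 or limma, with 1 higher and 1 lower at an unadjusted p under 0.05. The amount of plasmid taken up in each sample was not measured in these files, and its part in these values was not tested.

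**Figure D3:**
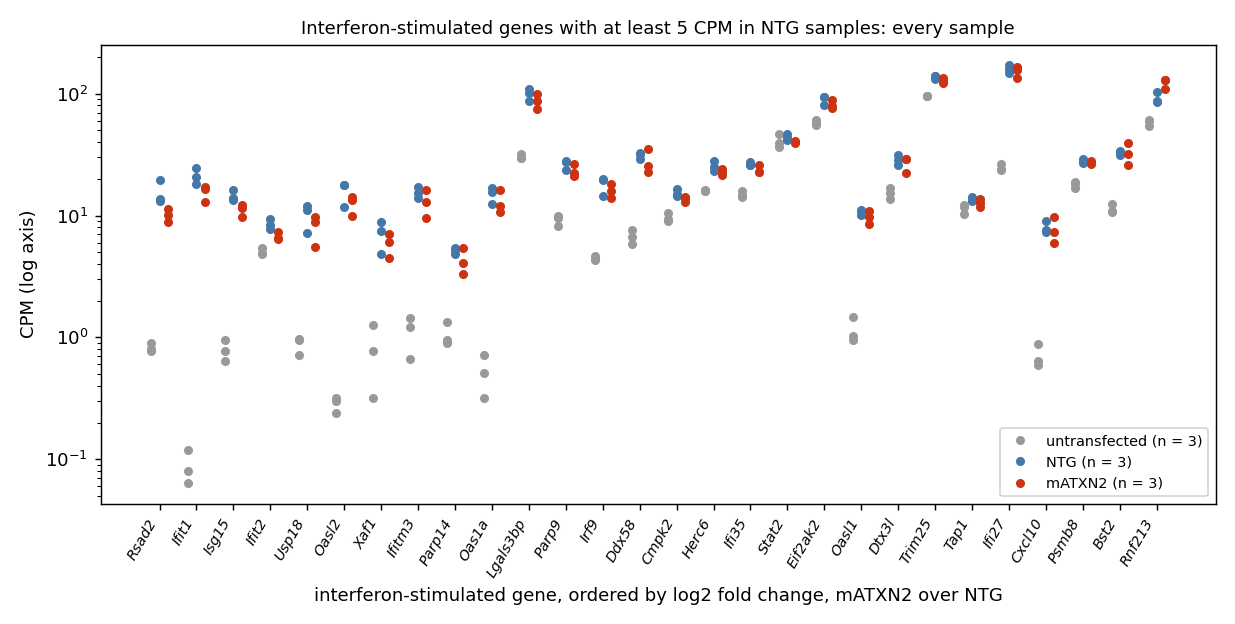
CPM on a log axis (y) of 28 interferon-stimulated genes with at least 5 CPM in the NTG samples (x, ordered by log2 fold change), each point 1 of 3 samples of untransfected, NTG or mATXN2 cells. Rsad2 and Ifit1, at the left, are under 1 CPM in untransfected cells, 13.2 to 24.6 CPM in NTG and 8.85 to 17.2 CPM in mATXN2 cells.

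Programs known to respond to cell stress, DNA damage or cell cycle arrest held no calls by edgeR. In the counts that follow, limma is adjusted within the comparison. DESeq2 gave some genes no adjusted p, Rsad2 and Ifit1 among them. Here and above such genes count as not called, so a count of none with DESeq2 can include genes it could not call. In edgeR none of 34 genes of the integrated stress and unfolded protein responses passed (4 higher and 1 lower at an unadjusted p under 0.05, none in DESeq2 or limma), nor did any of 18 p53 targets (1 and 2, none in either), 23 aminoacyl-tRNA synthetases (2 and 2, none in either) or 40 genes of mRNA decay (2 and 5, none in either). None of 28 cytosolic chaperones passed (3 and 2, with 1 higher in DESeq2), none of 48 genes of DNA replication and G1/S (5 and 3, with 1 higher in limma) and none of 45 genes of mitosis and G2/M (4 and 4, none in either). Adjusted over 10 comparisons, limma called 1 aminoacyl-tRNA synthetase, 1 chaperone and 2 genes of DNA replication and G1/S higher, and none of the other lists named here. The medians of these lists lay between -0.03 and 0.01. Replication-dependent histones, whose transcripts lack a poly(A) tail, were under 1 CPM in the NTG mean for 24 of 33 tested and held no call (4 higher and 0 lower at an unadjusted p under 0.05, none in DESeq2 or limma, and 2 higher in limma over 10 comparisons).

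The called genes differed from the rest in properties of their transcripts, taken from GENCODE M21, another annotation than that of the counts, for 87.3% of the tested genes (95.3% of the rises and 95.5% of the falls). The median coding length was 4068 bases for the rises and 1851 bases for the falls beside 1416 bases for all genes. The rises came from both ends: of the 10 equal bins of coding length, the longest (3534 to 26397 bases) held 61 of them and the shortest (111 to 552 bases), where ribosomal and respiratory genes sit, held 36, while the seventh and eighth held none. The falls had long 3' UTRs, with a median of 1642 bases beside 632 for the rises and 950.5 for all genes, and low GC content, with a median of 45.4% beside 53.8% and 50.7%. The 3 bins of lowest GC content held 15, 13 and 18 falls. Across those bins the median of all genes went from -0.05 in the lowest to 0.04 in the highest, and under DiCas7-11 from -0.07 to 0.06, while under HiFi-RfxCas13d it was -0.02 and -0.01.

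These trends bear on the calls above. After each library was corrected for its trend on coding length, 130 genes were called, 58 higher and 72 lower, so that rises were no longer the majority. Hspg2, Ubr4, Dync1h1, Fat1, Lrp1, Fn1, Fasn, Rnf213, Herc2, Huwe1, Map1a, Trrap, Mtor, Mdn1, Ep400, Prpf8, Srrm2, Hcfc1, Rpl35a, Srsf9 and all 5 robust falls still passed, whereas Plec, Herc1, Hectd4, Dst, Syne2, Ahnak, Bsn, Flna, Celsr2, Celsr3, Dchs1, Lrp6, the 3 H3-K4 methyltransferases, Sf3b5, all called genes of complexes II to IV, Ndufs3, Mrps7, Taf15 and every called ribosomal protein of the cytosol but Rpl35a did not. Macf1 turned from 0.21 to -0.01. A correction on GC content left 141 calls, 101 higher and 40 lower, and ended those of Ifit1, Gem, Pik3r3, Ankrd12, Zc3h6, Emp1 and Sec63 among the falls named here. The differences kept their sign: Ifit1 was at -0.41 (adjusted p = 0.0513), Gem at -0.32 (0.0694), Pik3r3 at -0.23 (0.0589), Ankrd12 at -0.18 (0.0581), Zc3h6 at -0.34 (0.0529), Emp1 at -0.13 (0.0694) and Sec63 at -0.08 (0.151). The median of the giant ubiquitin ligases was 0.08 after the correction on coding length and 0.17 after that on GC content, for the cytosolic ribosomal proteins the values were 0.02 and 0.03, and for the PI3K-related kinases, at 0.15 without a correction, 0.03 and 0.17. For the cytoskeletal linkers they were 0.06, with 3 called higher, and 0.16. For the CHD and SWI/SNF-type remodelers, at 0.07 without a correction, they were -0.0005 and 0.07. For the H3-K4 methyltransferases they were 0.12 and 0.17, and for the cadherin and LDL receptor-related giants 0.08 and 0.09. Whether such a trend arises in the cells or in the libraries was not tested.

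**Figure D4:**
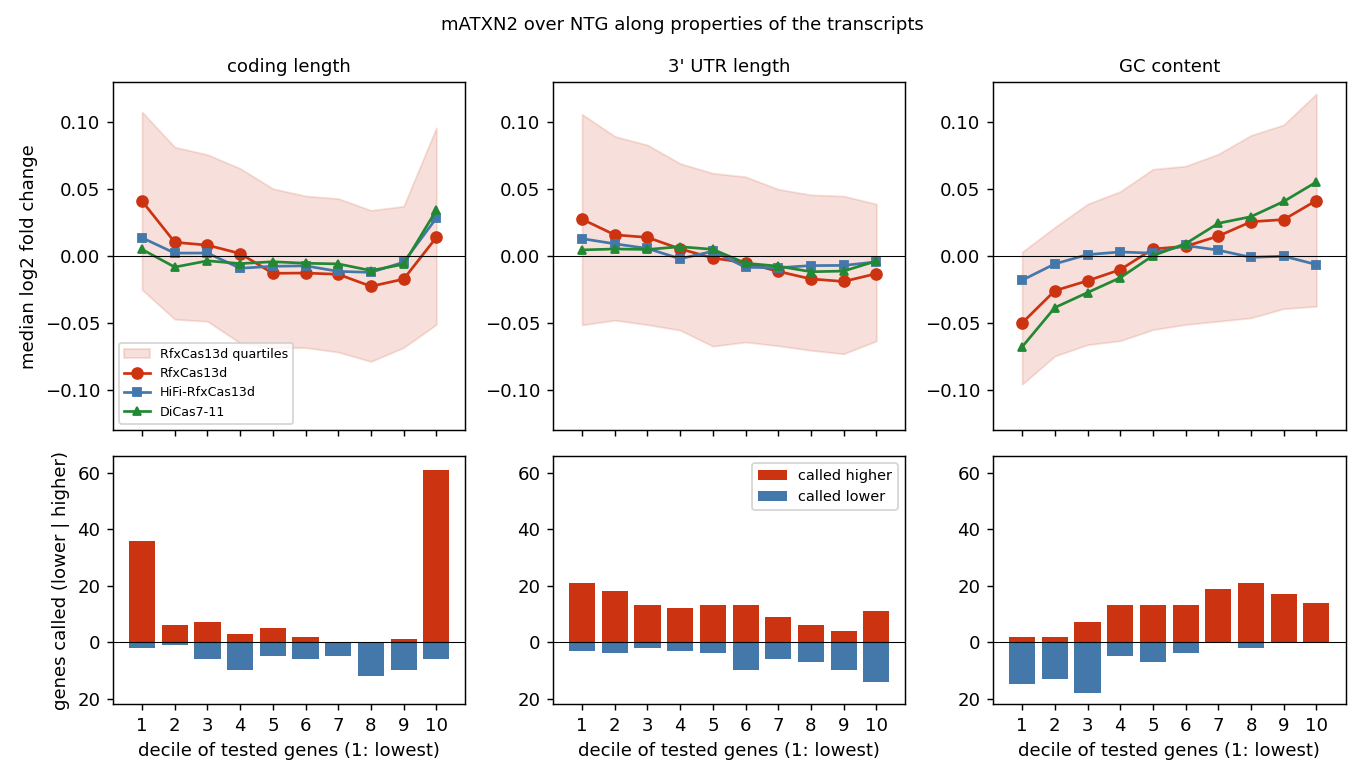
Above, the median log2 fold change of all tested genes in 10 equal bins (x axis, lowest to highest) of coding length, 3' UTR length and GC content, for RfxCas13d (circles, quartiles shaded), HiFi-RfxCas13d (squares) and DiCas7-11 (triangles); below, the number of genes called higher (up) and lower (down) under RfxCas13d in each bin. The longest bin of coding length holds 61 rises and the shortest 36, and the 3 bins of lowest GC content hold 15, 13 and 18 falls.

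The same genes were read in the samples of the other effectors, which share none with the 6 above. Of the 127 rises, 115 (90.6%) were also higher with HiFi-RfxCas13d and 115 with DiCas7-11, where 49.3% and 49.5% of all tested genes were higher, and 30 and 42 of them passed the test there, beside 41 (0.295%) and 131 (0.943%) genes called in either direction by those effectors over all genes. Their median was 0.21 with RfxCas13d, 0.09 with HiFi-RfxCas13d and 0.10 with DiCas7-11. Rises called with all 3 effectors numbered 27: they included Hspg2, Ubr4, Dync1h1, Fat1, Lrp1, Fn1, Fasn, Trrap, Mdn1, Kmt2d, Plec, Syne2, Herc1, Herc2 and Rnf213. Hspg2 rose by 0.57 with HiFi-RfxCas13d and by 0.53 with DiCas7-11, and Ubr4 by 0.50 and 0.37. By contrast Cox8a was at 0.02 and 0.06, Srsf9 at -0.02 and 0.08, and Palmd, a membrane-associated protein that rose by 0.46 with RfxCas13d (15.9 to 21.8 CPM), at 0.11 and 0.04, none of them called with either.

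Of the 66 falls, 54 (81.8%) were also lower with HiFi-RfxCas13d and 52 (78.8%) with DiCas7-11, where 50.6% and 50.5% of all tested genes were lower. Their medians there were -0.03 and -0.06 beside -0.16 with RfxCas13d, none passed with HiFi-RfxCas13d, and with DiCas7-11 2 did, Sec63 and Emp1, named here after their values were seen. No gene was called lower with all 3 effectors. Mbnl2 was at -0.04 and -0.09, Mapk10 at -0.03 and -0.06 and Rsad2 at -0.24 and 0.23. The genes were chosen for their size under RfxCas13d, so smaller values elsewhere do not show that the responses differ. A test of the difference between the responses called 0 of 13899 genes for RfxCas13d against HiFi-RfxCas13d (854 at an unadjusted p under 0.05; 0 also with DESeq2 and limma) and 0 for RfxCas13d against DiCas7-11 (1083; 7 with DESeq2 and 0 with limma). For Cox8a the difference was 0.23 from HiFi-RfxCas13d and 0.20 from DiCas7-11, and for Mbnl2 it was -0.22 and -0.17, none of which passed.

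**Figure D5:**
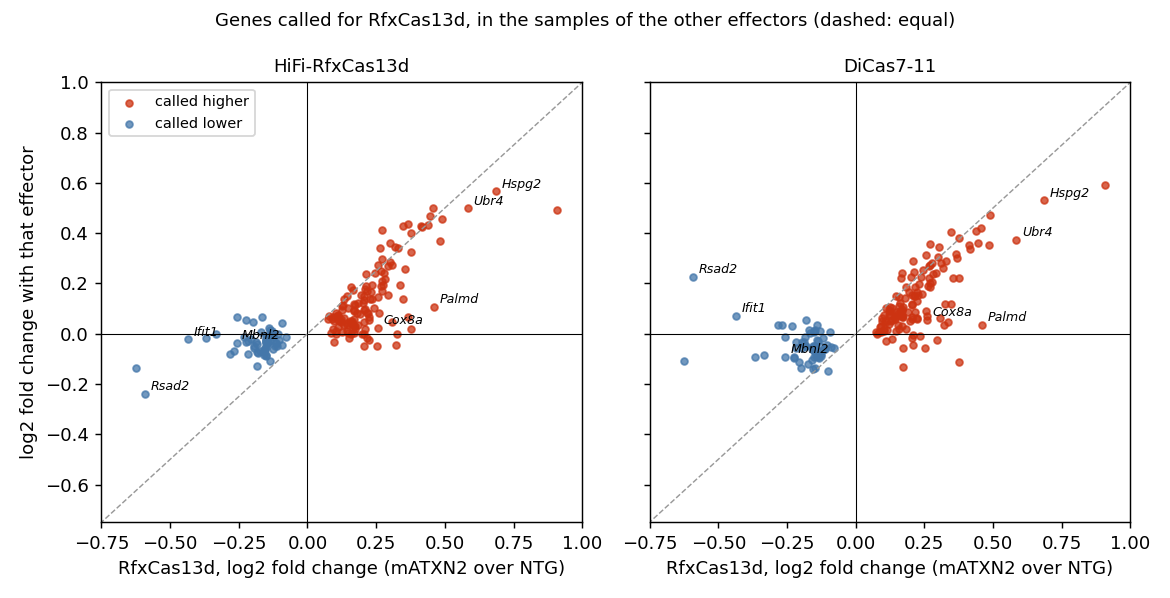
Log2 fold change of the called genes under RfxCas13d (x axis) against that with HiFi-RfxCas13d (left, y axis) and DiCas7-11 (right, y axis), with rises and falls in 2 colours and a dashed line of equal values; the 4 falls beyond -1, all of low counts, are not drawn. Of the 127 rises 115 lie above 0 in each panel, while the falls, of which 54 and 52 lie below 0, gather near 0 on the y axis.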

How the data were processed

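Total RNA of Neuro2A cells was sequenced by the authors as stranded, single-end mRNA libraries. Per the labels and the study's methods, transcripts were quantified with Salmon 1.5.2 on GRCm39 (NCBI annotation) with sequence and GC bias corrections, and summed to genes as estimated counts scaled by transcript length and library size. These deposited expected counts were rounded to whole numbers.

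Samples were grouped by the effector and crRNA of their labels, 3 a group, described as independent biological replicates. The fit kept genes that reached 0.5 CPM in 3 or more of the 24 samples, libraries were scaled by TMM, and each comparison was tested with edgeR 4.0.16 (quasi-likelihood, 8 groups in 1 fit, R 4.3.3) with Benjamini-Hochberg adjustment within the comparison at 0.05. The SE of a log2 fold change is its size over the square root of F. The 6 libraries held 14212492 to 18505568 counts, with TMM factors of 0.993 to 0.999, and no 2 replicates agreed within sampling noise (chi-square per gene 1.68 to 2.54).

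The members, gene lists and tests were chosen with earlier results of these data known. Genes were named by a rule: Atxn2; among called genes averaging 50 counts or more, whose groups did not overlap, the 12 largest rises, the 12 largest falls and the 6 smallest p-values in each direction; and the called members of each list with up to 4 others that define it or changed most. Alternatives were RLE scaling, no filter, at least 5 CPM, DESeq2 1.42.0, limma-trend 3.58.1 (also adjusted over 10 comparisons, the study's procedure), only the samples compared, a replicate block, leaving out each replicate, and corrections for transcript length, coding length or, added after seeing the data, GC content. These subtracted from each library a lowess curve (span 0.3) of its log2 ratio to the mean library over the 87.3% to 88.4% of genes that matched GENCODE M21 (GRCm38) by Entrez number. The edgeR and limma-trend fits were checked on simulated counts, while the DESeq2 fit, the corrections and the promoter search were not. Promoter windows came from RefSeq (GRCm38.p6), 250 bases before to 50 after each start. The crRNA spacer and the 13 mitochondrial genome transcripts were not analysed here, and some genes are not reported here.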

Additional observations from a re-analysis of the deposited data

How the results depend on the processing

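The count of 193 genes (127 higher, 66 lower) was 434 without the filter on low counts (256 and 178), 706 with limma-trend adjusted over 10 comparisons (387 and 319), 388 when only the 6 samples were fitted (244 and 144), and 43 to 142 when a library was left out: in replicate order 46, 105 and 142 for the NTG libraries, with 45, 99 and 110 of the 193 among them, and 128, 80 and 43 for the mATXN2 libraries, with 112, 73 and 41. The cause of these shifts was not tested, that of the fit of only the 6 samples, which has fewer residual degrees of freedom, included. The count was 188 with RLE, 239 at 5 CPM, 272 with DESeq2, 221 with limma-trend, 156 after transcript length (89 and 67), 130 after coding length (58 and 72) and 141 after GC correction (101 and 40). The difference of RfxCas13d from HiFi-RfxCas13d, 0 genes, was 84 without the filter and 1 (Gm44502) with only the samples compared, and that from DiCas7-11, 0 genes, was 72 without the filter and 7 with DESeq2. Atxn2 kept its sign and did not pass in any alternative. Over the other 88 named genes 1197 values kept their call, 372 lost it and 1 changed sign, Macf1 at -0.013 after the coding length correction. DESeq2 gave an adjusted p for 75 of the 88, all of which kept their call, and the genes without it are not in these totals. The losses were most frequent without mATXN2 replicate 3 (58 genes), without NTG replicate 1 (55), without mATXN2 replicate 2 (41) and after the coding length correction (39).

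Between the NTG and mATXN2 arms of RfxCas13d, same-numbered deviations from the group means had correlations of 0.03, -0.06 and 0.03, so no pairing was seen there. Pairing across the other groups was not examined in this way. With a replicate block the count was 292 (176 and 116), including all 193, and 261 with the transcript length correction as well (129 and 132), and the difference from DiCas7-11 was 4 genes (LOC118568306, Cd24a, Enc1 and Slc38a2). No named gene lost its call under the block. The estimated counts are treated as read counts, and with 3 samples a group changes of low genes were measured poorly.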

Other observations

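The 4 falls beyond 1 on the log2 scale, named here after their values were seen, were all of genes with few counts. Tmem236, a transmembrane protein, had a mean of 19.7 counts over the 6 samples (-1.10) and Galnt15, an enzyme that starts O-linked glycans, 35.3 counts (-1.13). 4933427I22Rik had 9.67 counts (-2.55), and the predicted gene LOC118567551, at 0.28, 0.06 and 0.65 CPM in the NTG samples, was at 0 in all 3 mATXN2 samples.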
